A study of Mus musculus with 9 samples.

Results

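The genes described here are 42 components of the DNA replication machinery, measured by RNA sequencing in 4 sorted cell populations of the mouse hair follicle. They were chosen by name, for what their proteins do, and each symbol matched a single row among the 46517 gene rows of the authors' tables. All 42 passed the filter on low counts, which left 20491 genes in the test. Cells came from the back skin of mice at postnatal day 30 and were separated by flow cytometry, with follicles at the final stage of hair growth, anagen VI. The populations are the stem cells of the bulge (HFSC, 3 libraries), the outer root sheath that lines the follicle below it (ORS, 2 libraries), and 2 layers of the hair bulb, the swelling at the base in which new hair is made. The basal layer (basal HB) and the suprabasal layer (suprabasal HB) gave 2 libraries each.

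No population carried a treatment or a knockout, and all are given the same strain, Lhx2-GFP on CD1. The extraction text names K14-H2BGFP mice instead, so the source of the GFP used in the sort is not settled. Sort markers were GFP, the integrins α6 and β1, P-cadherin, CD34 and Sca-1, without a statement of which gate gave which population. Whether replicates came from separate mice, and whether mice were pooled, is not stated either, so p-values reflect only the spread among these libraries, which may be technical.

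Replication starts at origins, where the origin recognition complex and the factors Cdc6 and Cdt1 load a ring of MCM proteins onto DNA, a step called licensing. Kinases and further factors then turn each MCM ring, together with Cdc45 and the GINS complex, into a moving helicase, and polymerases copy both strands behind it while the sliding clamp PCNA keeps them on the template. Many of these genes are transcribed shortly before and during S phase, under the control of E2F factors, and their combined level is widely used as a sign of how much a cell population divides. In the growing follicle the bulb is the main site of division, and bulge stem cells are known for dividing rarely.

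The promoters of these genes are where E2F factors are known to act, so the stretches that hold the E2F motif are shown first. RefSeq promoter windows (GRCm38.p6, the mm10 assembly, 250 bases before to 50 after a start) were found for 34 of the 42 genes, and a gene can have several windows. Gins2, Gmnn, Prim2, Mcm4, Pole, Gins4, Rfc2 and Gins1 had no entry. The motif searched was TTTCCCGC or TTTGGCGC on either strand. It was present for 11 of the 34 genes (32.4%), beside 486 of 27025 genes with a window (1.8%). Its 7-base core, TTCCCGC or TTGGCGC, which any match of the longer form contains, was present for 20 of 34 (58.8%), beside 7.8% of all genes. CCAAT, the box bound by NF-Y, was present for 22 of 34 (64.7%), beside 41.1%, and the CHR element TTTGAA of late cell cycle genes for 6 of 34 (17.6%), beside 20.2%. A match is a run of letters and does not show binding. The stretches below lie before the start of their gene and outside the exons of GENCODE M21, and the capitals mark the E2F motif. Mcm5 is on the plus strand at chr8:75109324-75109403, Mcm6 on the minus strand at chr1:128359709-128359851, where the motif occurs at 2 places, and Pola1 on the minus strand at chrX:93632250-93632329.
Mcm5: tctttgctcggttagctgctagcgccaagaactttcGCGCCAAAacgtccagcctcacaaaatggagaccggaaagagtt
Mcm6: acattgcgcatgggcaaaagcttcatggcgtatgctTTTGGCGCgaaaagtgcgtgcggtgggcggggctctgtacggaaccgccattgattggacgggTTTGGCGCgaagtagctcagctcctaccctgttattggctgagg
Pola1: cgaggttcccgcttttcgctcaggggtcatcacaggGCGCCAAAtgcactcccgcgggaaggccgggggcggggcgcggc
Among the groups of genes, licensing genes held the long motif most often by count, at 6 of the 10 with a window. The polymerase and primase genes followed with 3 of 6. None of the 3 nucleotide supply, 4 strand joining and single-strand binding and 2 histone loading genes with a window held it. Of 6 stretches with the long motif before a start, those of Mcm5, Mcm6 and Pola1 lay outside exons and are shown. Whether the motif goes with the size of a change was not tested.

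Total counts per library ran from 25098237 to 88596741, with the 3 HFSC libraries the shallowest. Values of 1 gene are compared as CPM, that is, counts normalised for the size and composition of each library. The labels put all libraries at mixed sex, but the Y-linked gene Ddx3y had at most 1.25 counts in an HFSC library and 51.7 to 96.2 CPM in the other 6, while Xist, transcribed in females, was at 1188 to 1437 CPM in HFSC and at 1.11 and 1459 CPM in ORS. In the bulb it was at 359.5 and 298 CPM in the basal layer but only 1.23 and 1.05 CPM in the suprabasal one. Sex and population therefore cannot be told apart where HFSC is compared or where suprabasal HB is compared with basal HB, and the ORS replicates differ from each other. The 8 bulge markers summed to 5155 to 5732 CPM in HFSC, 4942 and 6154 in ORS and at most 1183 in the bulb. In ORS against HFSC 5 of them were lower, among them Cd34, and Lhx2 was higher. The sum therefore did not set HFSC apart from ORS, with Lhx2 at 2961 and 3383 CPM in ORS and 1274 to 1422 CPM in HFSC. Most single markers did differ, such as Cd34 at 344 to 412 CPM in HFSC and 65.8 and 80.7 CPM in ORS. A list of 5 outer root sheath and basal keratins did not mark ORS either. Its sum was 3384 and 3988 CPM there, 9068 to 11310 CPM in HFSC and 1362 to 3632 CPM over the bulb libraries. Of the 5 keratins, 4 were lower and none was higher in ORS than in HFSC. Against ORS, basal HB had 3 of them higher and 1 lower, and suprabasal HB 2 higher and 3 lower. The 6 matrix markers summed to 1768 and 1839 CPM in basal HB, 1376 and 1586 in suprabasal HB, 873 and 875 in ORS and 408 to 458 in HFSC, with 5 of them higher and Foxn1 lower in basal HB than in HFSC. The 8 melanocyte markers summed to 14970 and 15280 CPM in suprabasal HB, 1321 and 883 in basal HB, 327 and 75.9 in ORS and 88.8 to 152 in HFSC. Dermal markers were found in all populations, with summed levels of 874 to 3887 CPM. Of the 9, 5 were higher and 1 lower in basal HB than in ORS, and 2 higher and 2 lower than in HFSC. Corin stood at 85.6 and 78.0 CPM and Pdgfrb at 87.8 and 95.7 CPM in basal HB. In the other populations Corin was at 2.4 to 18.7 CPM and Pdgfrb at 5.9 to 20.1 CPM. The 8 immune markers were low but present in all, at 34.5 to 90.1 CPM summed, most of it from Lyz2. The T cell genes Cd3e and Cd3g and the Langerhans cell gene Cd207 were at or near 0. Counting by strand is not stated, so values of the 17 members that overlap a gene on the opposite strand are uncertain, among them Orc6, Mcm7, Gins2, Rfc4, Rfc5, Fen1 and Chaf1a.

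Every one of the 42 genes was detected in every library, and ORS held the highest level of nearly all of them. Levels of different genes are compared as TPM, the authors' values scaled for transcript length and depth. The summed TPM of the 42 genes was 1765, 1966 and 1981 in HFSC, against 3779 and 3600 in ORS. It was 2764 and 2477 in suprabasal HB and 2026 and 1929 in basal HB. Both ORS libraries stood above all others, both suprabasal HB libraries above basal HB and HFSC, and the ranges of basal HB and HFSC overlapped. The median gene had a mean of 67.5 TPM in ORS, 49.6 in suprabasal HB, 40.0 in basal HB and 31.4 in HFSC. In bulk libraries, fewer cells in S phase and less RNA of these genes per cell cannot be told apart.

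Pcna, which encodes the sliding clamp, was the most abundant of the 42 at a mean of 271.8 TPM over the 9 libraries, and Rfc2, a subunit of the clamp loader, followed at 145.8 TPM and Rrm2, the regulated subunit of ribonucleotide reductase, at 142.5 TPM. Orc1, the largest subunit of the origin recognition complex, was the least abundant at 6.48 TPM, below Gins3 at 11.2 TPM and Cdc6 at 15.9 TPM. Above 100 TPM stood 12 of the 42 genes in ORS, 7 in suprabasal HB and 4 each in basal HB and HFSC. On normalised CPM, ORS had the highest mean for 40 of 42 genes, and on TPM for all 42. The exceptions on normalised CPM were Gins4 and Orc6, with slightly higher means in suprabasal HB. Both ORS libraries lay above all 7 others for 36 of 42 genes on normalised CPM, beside 8.51% of all genes tested, and for all 42 on TPM, beside 13.5% of the same genes on that scale. The 6 genes that did not separate on normalised CPM were Orc2, Orc6, Gins4, Pold2, Pcna and Rfc4.

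**Figure D1:**
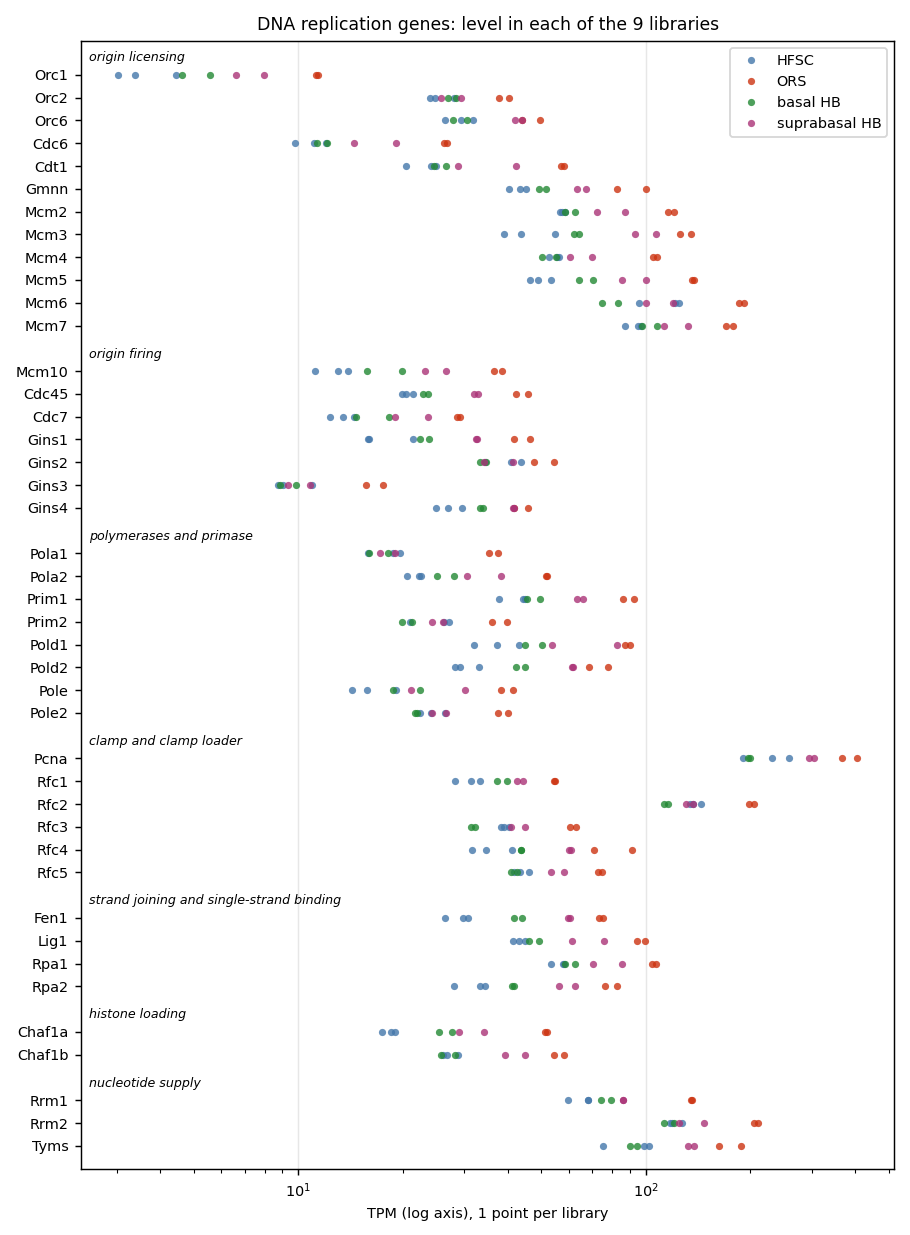
Level of each of the 42 replication genes as TPM on a log axis, 1 point per library, coloured by population and ordered by role. Orc1 lies at the far left with 3.03 to 11.4 TPM, Pcna at the far right with 190 to 406 TPM, and in each row the 2 ORS points lie to the right of all others.

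The first comparison sets the outer root sheath against the bulge stem cells above it. Of the 42 genes, 37 were higher in ORS than in HFSC at an adjusted p under 0.05 in edgeR's quasi-likelihood test, beside 18.1% of all genes tested. None was lower, beside 23.8%, also at an unadjusted p under 0.05 or with DESeq2 or limma. The median log2 fold change was 0.78 over the 42 genes and -0.05 over all genes tested. For all 42 genes the ORS libraries lay above the 3 HFSC libraries, a separation found for 28.3% of all genes. The 5 that missed the threshold were Orc6, Gins2, Gins4, Prim2 and Pole2, with log2 fold changes from 0.17 to 0.35. On log2(TPM + 1) limma called 41 of the 42 higher, beside 23.9% of all genes kept on that scale. Of all genes called, 69.9% were higher there, against 43.2% on counts.

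Licensing genes included the largest difference. Of the 12, 11 were higher in ORS, with a median log2 fold change of 0.89. Orc1 (ENSMUSG00000028587, chr4:108579423-108614833, mm10) was at 17.3 and 16.0 CPM in ORS and at 5.44, 8.59 and 6.91 CPM in HFSC. Both ORS libraries lay well above the highest HFSC library, and the log2 fold change was 1.26 ± 0.19 (SE; edgeR adjusted p = 0.00093). Its partner Orc2 differed less, at 66.0 and 64.1 CPM against 41.7, 53.7 and 47.0 CPM (log2 fold change 0.46 ± 0.12, SE; edgeR adjusted p = 0.017), and Orc6 gave 0.33 ± 0.13 (SE; edgeR adjusted p = 0.061). Cdc6 and Cdt1, which bring the MCM ring to the origin, gave log2 fold changes of 1.02 and 0.98. Gmnn, which encodes geminin, the inhibitor of Cdt1, rose with them by 0.93. Of the MCM ring subunits, Mcm5 showed the largest difference, with 258.5 and 249 CPM in ORS and 104, 122 and 124 CPM in HFSC (log2 fold change 1.12 ± 0.09, SE; edgeR adjusted p = 7.3e-05). Mcm4, with 206 and 207 CPM against 123, 147 and 135 CPM, showed the smallest at 0.61 ± 0.09 (SE; edgeR adjusted p = 0.00086). For both genes the ORS libraries were close to each other and above every HFSC library.

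The firing factors, which turn a licensed origin into an active fork, gave 5 of 7 higher in ORS. Mcm10, which helps start the helicase, was at 55.6 and 52.3 CPM in ORS and at 19.6, 26.7 and 27.3 CPM in HFSC, a log2 fold change of 1.14 ± 0.13 (SE; edgeR adjusted p = 0.00028). The ORS values were close to each other and far above HFSC. Cdc45, the helicase partner of the MCM ring, stood at 46.7 and 42.7 CPM against 23.5, 28.6 and 24.8 CPM, a log2 fold change of 0.80 ± 0.11 (SE; edgeR adjusted p = 0.0006). The 4 GINS subunits, which work as 1 complex, did not share a size of change: Gins1 was 0.99 higher on the log2 scale, Gins3 0.45, and Gins4 at 0.35 and Gins2 at 0.17 did not pass. Gins2 (chr8:120578633-120589304) stood at 77.4 and 82.6 CPM in ORS and 69.3, 70.1 and 74.5 CPM in HFSC, groups that lay apart by a narrow gap.

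Polymerase and primase genes were higher in ORS for 6 of 8. Pold1, the catalytic subunit of polymerase delta, gave the largest log2 fold change at 1.08, with 98.7 and 100.2 CPM in ORS against 49.8, 42.5 and 48.6 CPM in HFSC. Within polymerase epsilon the catalytic subunit gene Pole was 1.02 higher, while Pole2, its second subunit, gave 0.33 ± 0.12 (SE; edgeR adjusted p = 0.054). The primase pair gave unequal values too. Prim1, its catalytic subunit, was at 82.1 and 74.0 CPM in ORS and at 40.3, 52.5 and 48.6 CPM in HFSC, a log2 fold change of 0.73 ± 0.11 (SE; edgeR adjusted p = 0.0012). Prim2, the large subunit, was at 42.8 and 37.9 CPM against 26.9, 37.3 and 35.95 CPM, with 0.28 ± 0.14 (SE; edgeR adjusted p = 0.14), and its groups lay apart by a narrow gap. Whether the 2 genes of a pair differ in their change was not tested.

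All 6 clamp and clamp loader genes were higher in ORS, though their median, 0.54, was the lowest of the 7 groups of genes. Pcna (chr2:132249162-132253314) stood at 312 and 271 CPM in ORS and at 117, 174 and 149 CPM in HFSC, a log2 fold change of 0.99 ± 0.16 (SE; edgeR adjusted p = 0.0014). Rfc2 was 0.29 ± 0.08 higher (SE; edgeR adjusted p = 0.021), the smallest change among these 6. Rfc4, at 55.8 and 44.6 CPM against 23.5, 30.3 and 30.2 CPM, gave 0.84 ± 0.14 (SE; edgeR adjusted p = 0.0018), and its locus overlaps Eif4a2 on the opposite strand, whose mean level was 393 CPM. The 4 genes of strand joining and single-strand binding all rose, from Rpa1 at 0.44, a subunit of the single-strand binding protein, to Fen1 at 1.01, the nuclease that trims Okazaki fragments.

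Chaf1a and Chaf1b, the subunits of the chromatin assembly factor that loads histones onto new DNA, were both higher in ORS. Chaf1a (chr17:56040439-56072289) had the smallest adjusted p of the 42, with 92.8 and 92.2 CPM in ORS and 40.0, 41.7 and 42.4 CPM in HFSC, a log2 fold change of 1.16 ± 0.07 (SE; edgeR adjusted p = 2.3e-05). The libraries of each population agreed closely and the 2 populations lay far apart. The nucleotide supply genes Rrm1, Rrm2 and Tyms, which encode the 2 subunits of ribonucleotide reductase and thymidylate synthase, gave 0.71, 0.78 and 0.58, all past the threshold. Rrm2 (chr12:24708241-24714146) stood at 226 and 227 CPM in ORS and at 132, 136 and 129 CPM in HFSC (SE 0.07; edgeR adjusted p = 0.00011). Tyms spread more, with 114 and 103 CPM against 57.1, 80.7 and 79.7 CPM (SE 0.14; edgeR adjusted p = 0.011). HFSC replicate 1, the low value for Tyms, was the lowest of the 3 HFSC libraries for 36 of the 42 genes, and without it 36 of the 42 genes were higher in ORS.

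**Figure D2:**
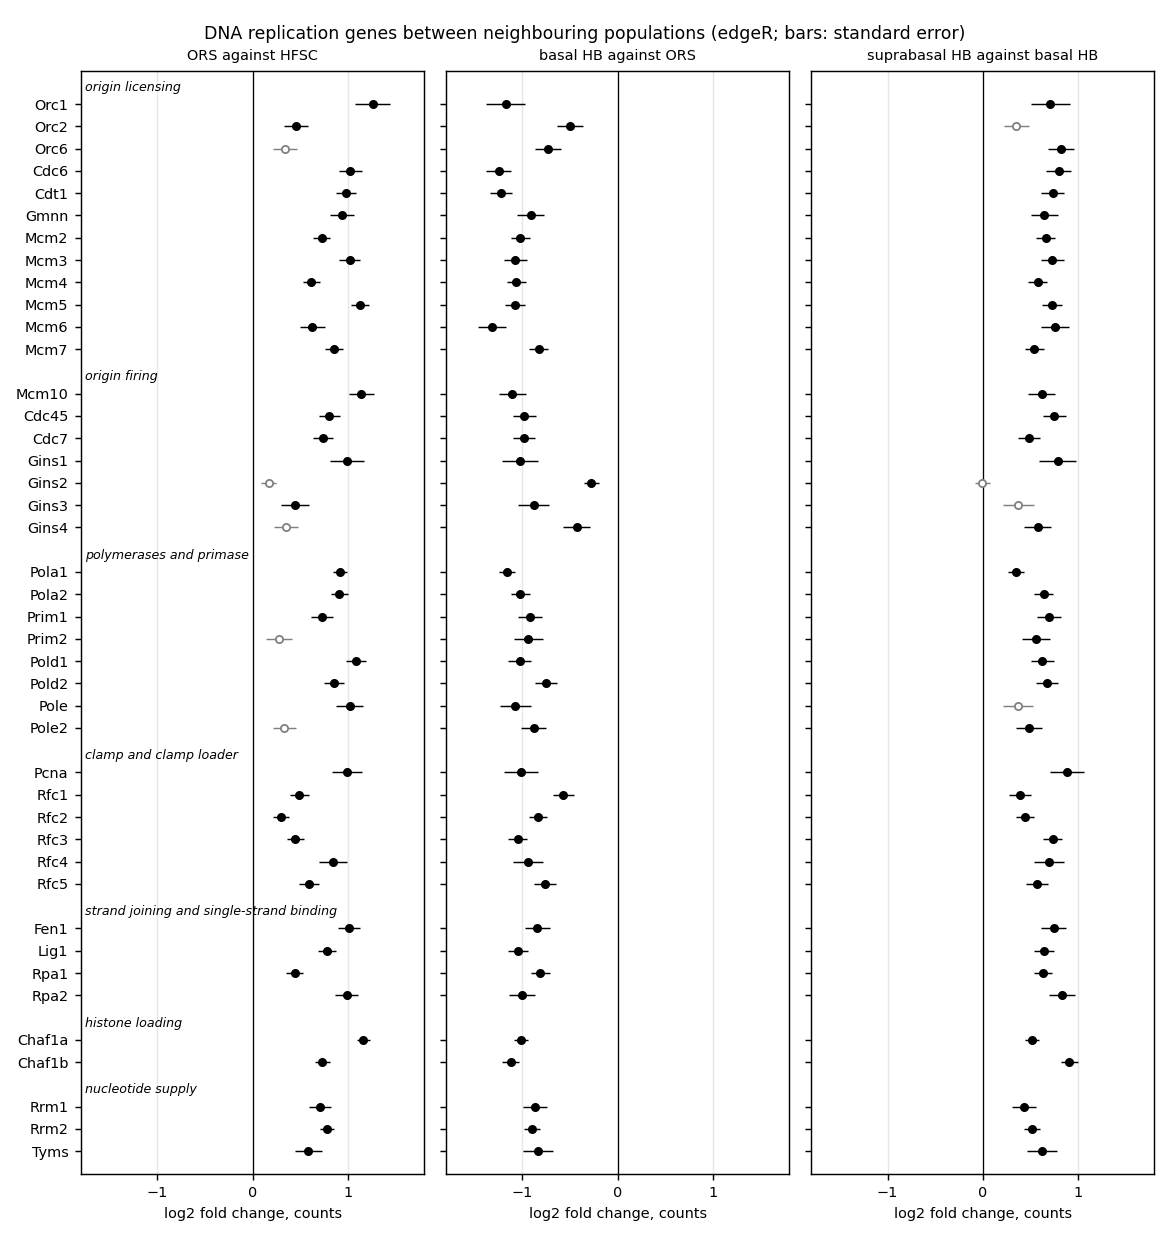
Log2 fold change of each of the 42 genes in the 3 comparisons between neighbouring populations, from edgeR on counts, with bars of 1 SE. Points for ORS against HFSC lie between 0.17 and 1.26, those for basal HB against ORS between -1.32 and -0.28, and those for suprabasal HB against basal HB between -0.00 and 0.91.

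From the sheath to the basal layer of the bulb the direction turned. All 42 genes were lower in basal HB than in ORS, beside 14.7% of all genes tested, with a median log2 fold change of -0.98 against -0.04 over all genes. None was higher in edgeR, beside 15.8%, also at an unadjusted p under 0.05, or with DESeq2 or limma. For all 42 genes both basal HB libraries lay below both ORS libraries, which 35.9% of all genes tested also did. The medians of the 7 groups of genes lay close together, from -0.87 in nucleotide supply to -1.07 in licensing and in histone loading.

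Mcm6 (chr1:128331590-128359664) fell most. It stood at 311 and 293 CPM in ORS and at 121 and 122 CPM in basal HB, a log2 fold change of -1.32 ± 0.15 (SE; edgeR adjusted p = 0.00036). Cdc6, Cdt1 and Orc1 followed within licensing at -1.25, -1.23 and -1.18. Orc2 fell least of the 12, with 44.1 and 47.6 CPM in basal HB (log2 fold change -0.50 ± 0.14, SE; edgeR adjusted p = 0.021). Gmnn fell by 0.91 on the log2 scale together with its target Cdt1.

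Of the firing factors, Mcm10 fell by 1.10 on the log2 scale, Gins1 by 1.03, and Cdc45 and Cdc7, the latter the kinase that triggers firing, by 0.98 each. Gins2 again moved least, from 77.4 and 82.6 CPM to 64.3 and 67.8 CPM, at -0.28 ± 0.08 (SE; edgeR adjusted p = 0.032). Pola1 (chrX:93304767-93632155), the catalytic subunit of the polymerase that makes primers, fell most of its group at -1.16 ± 0.08 (SE; edgeR adjusted p = 8.7e-05), from 104 and 95.0 CPM to 45.2 and 43.8 CPM. Pold2, the second subunit of polymerase delta, fell least of that group at -0.76.

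The clamp gene Pcna dropped from 312 and 271 CPM to 135 and 153 CPM, a log2 fold change of -1.02 ± 0.18 (SE; edgeR adjusted p = 0.0028). Rfc3 fell by 1.05 on the log2 scale and Rfc1, the large subunit of the loader, by 0.57. Lig1, the ligase that seals Okazaki fragments, fell by 1.05 and Rpa1 by 0.81. Chaf1a and Chaf1b fell by 1.01 and 1.12, and Rrm2, Rrm1 and Tyms by 0.90, 0.87 and 0.84. The smallest change in each of the 7 groups of genes passed the threshold.

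Within the bulb, suprabasal cells held more of these transcripts than basal cells when counts were scaled to library size. Of the 42 genes, 38 were higher in suprabasal HB, beside 13.1% of all genes tested, and none was lower, beside 14.8%, also at an unadjusted p under 0.05 or with DESeq2 or limma. The median log2 fold change was 0.64, against 0.00 over all genes. For 41 genes both suprabasal HB libraries lay above both basal HB libraries, as for 33.9% of all genes, and Gins2 was the exception. Orc2, Gins3 and Pole, at 0.35 to 0.37, did not pass, nor did Gins2, with 66.9 and 64.7 CPM in suprabasal HB and 64.3 and 67.8 CPM in basal HB.

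Chaf1b (chr16:93883901-93906115) rose most, from 23.9 and 24.7 CPM in basal HB to 46.0 and 45.1 CPM in suprabasal HB, a log2 fold change of 0.91 ± 0.09 (SE; edgeR adjusted p = 0.00022). Pcna followed at 0.88 ± 0.18 (SE; edgeR adjusted p = 0.0067), with 251 and 280 CPM in suprabasal HB. In licensing, Orc6 rose most, from 24.5 and 24.9 CPM to 41.8 and 45.6 CPM, a log2 fold change of 0.82 ± 0.14 (SE; edgeR adjusted p = 0.003), at a locus that overlaps Vps35 on the opposite strand. Cdc6 gave 0.80, and the MCM ring genes 0.54 for Mcm7 to 0.75 for Mcm6. Gins1 led the firing factors at 0.78, and Prim1 the polymerase and primase genes at 0.69. Rpa2, which encodes the middle subunit of the single-strand binding protein, led its group at 0.83 ± 0.14 (SE; edgeR adjusted p = 0.0026), from 32.9 and 36.6 CPM to 60.15 and 63.5 CPM. In each of these genes both suprabasal HB libraries lay above both basal HB libraries. The nucleotide supply genes had the lowest median, 0.52.

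The size of this rise depended on the scale. On log2(TPM + 1), tested with limma, 17 of the 42 genes were higher in suprabasal HB, beside 4.23% of all genes, and none lower, beside 16.0%. On that scale the median over all genes also shifted, to -0.13, and 20.8% of all genes called were called higher, against 46.8% on counts. The count of members also fell without basal HB replicate 1 or suprabasal HB replicate 2, as did the count of all genes called higher. The 13 genes higher under every one of the 18 alternatives were Cdc45, Chaf1b, Fen1, Lig1, Mcm2, Mcm3, Mcm5, Orc6, Pold2, Prim1, Rfc3, Rpa1 and Rpa2. Melanocyte transcripts moved with this difference, and all 8 markers were higher in suprabasal HB. Dct stood at 5209 and 5494 CPM there and at 489 and 348 CPM in basal HB. Of 9 inner root sheath and hair shaft genes, 8 were higher too. The 9 summed to 4852 and 3906 CPM against 4513 and 4806 CPM, since Tchh was lower, at 628 and 622 CPM against 3818 and 4193 CPM. The part of these transcripts in the result was not tested.

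Suprabasal HB still fell short of the sheath. Of the 42 genes, 20 were lower in suprabasal HB than in ORS, beside 15.1% of all genes tested, and none was higher, beside 14.3%, with edgeR, DESeq2 or limma or at an unadjusted p under 0.05. The median log2 fold change was -0.35, against -0.01 over all genes. Pola1 differed most, at 55.7 and 57.8 CPM against 104 and 95.0 CPM, a log2 fold change of -0.81 ± 0.08 (SE; edgeR adjusted p = 0.00017). Its level in suprabasal HB was about that of HFSC, where it stood at 51.5, 51.1 and 55.5 CPM. Pole, at -0.71, and Mcm6, at -0.56, came next. Gins4 and Orc6, at 0.14 and 0.09, had means above ORS without passing the test (edgeR adjusted p = 0.50 and 0.68). Pola1, Mcm4 and Chaf1a were the 3 genes lower under all 18 alternatives. The count was unstable to single libraries. It fell when any 1 library of ORS, suprabasal HB or basal HB was left out, and so did the count over all genes tested. On log2(TPM + 1) 29 of the 42 genes were lower, beside 14.9% of all genes lower on that scale. Of all genes called, 31.7% were higher there, against 48.6% on counts.

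Against HFSC, suprabasal HB was higher for 28 of 42 genes, beside 25.2% of all genes tested, and lower for none, beside 26.3%, with edgeR, DESeq2 or limma or at an unadjusted p under 0.05. The median log2 fold change was 0.45, against 0.02 over all genes. Fen1 differed most at 0.91 ± 0.12 (SE; edgeR adjusted p = 0.00027), from 37.5, 48.8 and 43.0 CPM in HFSC to 76.3 and 85.6 CPM. All 4 genes of strand joining and both histone loading genes rose, as did 9 of 12 licensing genes. Mcm6 stood at 209 and 199.5 CPM against 160, 222 and 206 CPM, overlapping groups with a log2 fold change of 0.06 ± 0.13 (SE; edgeR adjusted p = 0.72). Besides Mcm6, the 14 genes that did not pass included Mcm4, Prim2, Pola1, Pole2, Rfc2 and Rfc3.

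Basal HB and HFSC had the smallest median difference of the 6 pairs of populations, and their order depended on the scale. On counts, 13 genes were lower in basal HB, beside 26.1% of all genes tested, and none was higher, beside 22.8%. Also at an unadjusted p under 0.05 none was higher, while DESeq2 called 1 and limma on log2(TPM + 1) called 10. The share lower, 13 of 42, was near the background, and the median log2 fold change was -0.14 against -0.00 over all genes. The 13 were Orc6, Mcm2, Mcm4, Mcm6, Gins3, Pola1, Prim2, Pole2, Rfc2, Rfc3, Lig1, Rpa1 and Chaf1b. Mcm6 differed most at -0.69 ± 0.14 (SE; edgeR adjusted p = 0.0029), with 121 and 122 CPM in basal HB below all 3 HFSC libraries. The count of 13 became 6 without HFSC replicate 2 or HFSC replicate 3, beside 4132 of 20520 and 3909 of 20514 genes tested. It also fell without basal HB replicate 1 or 2 or suprabasal HB replicate 2, as did the count of all genes called lower.

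On TPM, which carries no TMM scaling and was tested with limma, values of basal HB lay higher relative to HFSC, for the members as for other genes. On log2(TPM + 1), 10 of the 42 genes were higher in basal HB than in HFSC, a smaller share than the 32.6% of all genes, and 3 were lower, beside 11.5%. The median over all genes shifted by 0.17 on this scale, and 73.9% of all genes called were called higher, against 46.7% on counts. Scaling of the counts alone moved the same split, to 57.2% with upper quartiles, and TMM factors were 0.9 to 0.925 in HFSC and 1.059 and 1.127 in basal HB. Effective length, the transcript length RSEM assigns to a gene from the isoforms it finds, had a median ratio of 1.001 over the members between the other 6 libraries and HFSC. The 3 genes lower on this scale were lower under all 18 alternatives. Mcm6 gave a difference of -0.52 (limma adjusted p = 0.015), Rfc3 of -0.29 (limma adjusted p = 0.011) and Rfc2 of -0.27 (limma adjusted p = 0.0093). Rfc2 stood at 116 and 113 TPM in basal HB and at 137, 134 and 144 TPM in HFSC, and Rfc3 at 32.2 and 31.4 TPM against 38.2, 40.3 and 39.2 TPM. In all 3 genes the basal HB libraries lay below all HFSC libraries on both scales. They were picked for being lower under every alternative, so this separation adds no support. On normalised CPM, 17 of the 42 genes and 7205 of the 20491 genes tested separated this way.

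**Figure D3:**
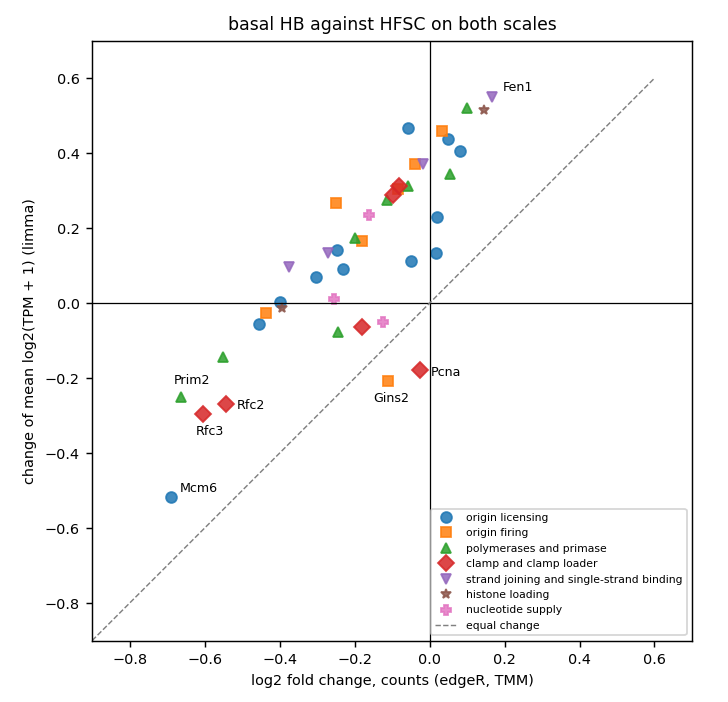
Difference of each of the 42 genes between basal HB and HFSC, with the log2 fold change from counts on the x axis and the change of mean log2(TPM + 1) on the y axis, marked by role. Most points lie above the dashed line of equal change, so that many are below 0 on counts and above 0 on TPM, while Mcm6, Rfc2 and Rfc3 are at the lower left on both and Pcna and Gins2 lie below the line.

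Across the 4 populations, the order of mean normalised CPM was ORS, suprabasal HB, HFSC, basal HB for 26 genes. For 9 genes HFSC came last instead: Orc1, Gmnn, Mcm5, Mcm7, Mcm10, Pold1, Pold2, Fen1 and Chaf1a. On TPM the order with HFSC last held for 27 genes. For 29 of the 42 genes basal HB and HFSC did not differ past the threshold on counts, so their order is within the spread for most genes.

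Members of 1 complex were not in fixed proportion, as seen from shares of summed TPM. The MCM ring holds 1 copy of each of Mcm2 to Mcm7, and their summed TPM was 864 and 845 in ORS, 616 and 524 in suprabasal HB, 443 and 407 in basal HB, and 378 to 441 in HFSC. Mcm6 gave 25.3%, 29.3% and 27.6% of it in HFSC and 22.2% and 21.9% in ORS. In the bulb it gave less, 18.7% and 18.4% in the basal layer and 19.4% and 19.1% in the suprabasal layer. It was the most abundant of the 6 in all HFSC and ORS libraries, and Mcm7 in all bulb libraries. Mcm3 went the other way, from 10.3%, 10.3% and 12.5% in HFSC to 17.4% and 17.7% in suprabasal HB. Mcm5 held 11.5% to 12.2% in HFSC and 15.8% to 16.3% in the other 6 libraries, with no overlap. TPM is scaled by effective length, which for Mcm3 averaged 2677 bases in HFSC and 2124 in suprabasal HB. For Mcm6 it averaged 2462 and 2932 bases, and for Mcm5 it was 3372 in every library. How much of the shifts in share comes from length was not tested. The most abundant subunit exceeded the least by 2.48 times in HFSC and by 1.77 to 1.95 times in the other populations.

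The clamp loader was led by Rfc2 in all 9 libraries, with 47.1% to 49.4% of the summed TPM of Rfc1 to Rfc5 in HFSC and 39.6% to 43.3% elsewhere. Rfc4 held 11.5% to 13.6% in HFSC and 15.5% to 18.6% elsewhere. In the GINS complex, Gins2 led in HFSC and ORS, and Gins4 in both suprabasal HB libraries at 33.1% and 35.2%. Gins1 rose from 17.2% to 20.3% in HFSC to 28.6% and 28.1% in ORS. These shares are descriptions without a test, and no share says how much protein was present.

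**Figure D4:**
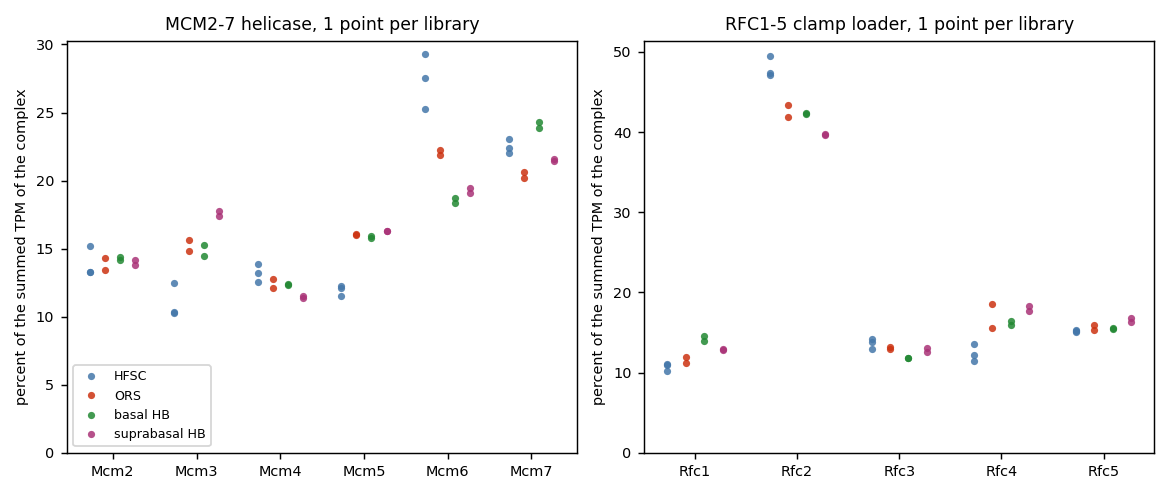
Share of summed TPM, in percent, that each subunit gives within the MCM ring and the clamp loader, 1 point per library and grouped by population. Mcm6 declines from 25.3% to 29.3% in HFSC to 18.4% and 18.7% in basal HB, and Rfc2 is the top point of its panel in all 9 libraries.

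Effective length differed most between HFSC and the other libraries for a few members. For Pcna it averaged 926 bases in HFSC and 1369, 1370 and 1389 bases in ORS, basal HB and suprabasal HB, with no overlap between HFSC and the rest. Rrm2 averaged 1569 bases in HFSC and 1961 to 2008 bases elsewhere, and Mcm7 1912 against 2319 to 2347 bases. These were the 3 of 42 members over 1.2 times longer in the other 6 libraries, beside 7.78% of all genes tested, and none was shorter by that much. For such genes CPM and TPM differ in size: Pcna differed between ORS and HFSC by a log2 ratio of mean TPM of 0.78, against 0.99 on counts. Gins2 varied most over the 9 libraries, by 1.69 times, from 2169 bases in HFSC replicate 2 to 3667 in basal HB replicate 1, and its locus overlaps Gse1 on the opposite strand.

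Other genes of replication were taken from a list of 46 that are not among the 42, covering further origin, polymerase, fork protection, histone and nucleotide genes. In ORS against HFSC 34 of the 46 were higher and 1 was lower, beside 18.1% and 23.8% of all genes tested. The median log2 fold change of the 46 was 0.66. Dna2, which processes Okazaki fragments together with Fen1, led at 1.53 ± 0.12 (SE; edgeR adjusted p = 5.8e-05), from 21.5 ± 3.16 CPM in HFSC (SD, n = 3) to 62.0 ± 5.80 CPM in ORS (SD, n = 2). Dtl, an adaptor of the ligase that removes Cdt1 in S phase, followed at 1.41, and Mcm8, a relative of the MCM ring genes, at 1.40. The gene that went the other way was Pold4, the smallest subunit of polymerase delta, at 23.7 ± 1.12 CPM in HFSC (SD, n = 3) and 10.9 ± 0.28 CPM in ORS (SD, n = 2), a log2 fold change of -1.11 ± 0.12 (SE; edgeR adjusted p = 0.0002). Its partners Pold1 and Pold2 were higher in ORS, by 1.08 and 0.85 on the log2 scale.

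In basal HB against ORS 38 of the 46 genes were lower and none was higher, beside 14.7% and 15.8% of all genes tested. The median log2 fold change of the 46 was -0.70. Dscc1, part of an alternative clamp loader, fell by 1.22 on the log2 scale and Dtl by 1.21. In suprabasal HB against basal HB 31 were higher and none was lower, beside 13.1% and 14.8% of all genes tested. The median of the 46 was 0.42. Dscc1 at 0.88 and Pole4, an accessory subunit of polymerase epsilon, at 0.78 were among the 31 higher. That count was 7 on log2(TPM + 1), where 4.23% of all genes were higher. It also fell without basal HB replicate 1 or 2 or suprabasal HB replicate 2, as did the count of all genes called higher. Pold4 remained low in the bulb, at 12.2 ± 1.38 CPM in basal HB and 11.2 ± 0.27 CPM in suprabasal HB (SD, n = 2 each). It was lower than in HFSC by 0.96 and 1.08 on the log2 scale, while the 4 polymerase delta and epsilon genes among the 42 had log2 fold changes from -0.55 to 0.10 in basal HB against HFSC.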

How the data were processed

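The 9 libraries were made from RNA of sorted cells with a TruSeq mRNA kit and read in pairs on Illumina HiSeq machines, per the labels' protocols. Bowtie2 2.2.9, RSEM 1.2.30 and mm10 are named in the submitters' processing notes, while the annotation, parameters and counting strand are not given in the sources used here. The authors' deposited tables give expected counts, that is, estimated reads per gene not scaled for depth, as well as TPM, scaled by the authors for effective length and depth, and effective length itself as another deposited column. The deposited FPKM columns and a TPM table of the whole series were not used.

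Rounded expected counts were analysed in edgeR 4.0.16 (R 4.3.3) after filterByExpr on the 4 populations and TMM scaling (factors 0.9 to 1.127), in 1 quasi-likelihood fit with 5 residual degrees of freedom. Two-sided F-tests were adjusted by Benjamini and Hochberg over 20491 genes, with a threshold of 0.05. The SE of a log2 fold change was derived from F (its size over the root of F). Normalised CPM uses the same scaling. The 18 alternatives were DESeq2 size factors, upper-quartile scaling, DESeq2 1.42.0, 2 other filters (none, or at least 1 CPM in every library of a population), only the 2 populations compared, a replicate block, limma 3.58.1 on log2(TPM + 1) and log2(TPM + 0.1) over 25345 genes without TMM scaling, and leaving out each of the 9 libraries. Positions and overlaps come from GENCODE M21 (mm10), which held 98.9% of gene rows, and promoter windows from RefSeq.

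Of the members, those described in full are, per group of genes, the ones with the highest or lowest mean TPM or the largest or smallest change, and those not called; of the other genes, the 3 largest called changes between neighbouring populations and those against the majority. A gene that this rule would name is not reported here. The members, gene lists and marker lists were chosen with earlier results of these data known. Of the marker genes, Krt85 matched no row. Each library counted as 1 sample. Replicates of a population differed beyond sampling noise, which does not show that they came from separate mice.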

Additional observations from a re-analysis of the deposited data

How the results depend on the processing

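Leaving out single libraries gave 33 to 42 genes higher in ORS than in HFSC, 39 to 41 lower in basal HB than in ORS and 25 to 34 higher in suprabasal HB than in HFSC, so these counts stayed within 1.5 times of the reported ones under all 18 alternatives. Of the genes reported, 33 of 37, 39 of 42 and 22 of 28 were called under every alternative. The rise in suprabasal HB over basal HB was called for 17 genes on both TPM scales and for 23 to 38 with a library left out. Suprabasal HB against ORS gave 10 lower when only the 2 populations were fitted and 5 to 23 with a library left out. Basal HB against HFSC gave 8 lower with upper-quartile scaling, 6 without the low-count filter, 3 on both TPM scales and 6 to 12 with a library left out. Its count of higher genes was 1 with DESeq2 size factors, 2 with upper-quartile scaling, 1 with DESeq2, 10 on both TPM scales and 0 to 2 with a library left out. On log2(TPM + 1) and log2(TPM + 0.1) the difference between basal HB and HFSC turned positive for Orc6 (0.004 and 0.005), Mcm2 (0.071 and 0.072), Lig1 (0.135 and 0.138) and Rpa1 (0.097 and 0.099). The cause was not tested. Over all genes, basal HB was higher than HFSC for 5087 of 20491 with DESeq2 size factors, 5915 with upper-quartile scaling and 5030 with DESeq2. It was lower for 4418 with upper-quartile scaling and for 4336 of 32209 without the low-count filter. On log2(TPM + 1) and log2(TPM + 0.1), 8274 and 8217 of 25345 were higher and 2922 and 2905 lower. With only 2 populations fitted, 2135 of 19233 genes were lower in suprabasal HB than in ORS. Where 1 library was left out of a pair, the lone library was taken to vary like the other populations. For such a pair, fewer of all genes were called than with all 9 libraries. The share of all genes called under every alternative was not counted.

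Replicate numbers gave no pairing: deviations of same-numbered libraries correlated between -0.105 and 0.121, and no label ties a number to a mouse or day. With the replicate block, 36 genes were higher in ORS than in HFSC, 41 lower in basal HB than in ORS, 36 higher in suprabasal HB than in basal HB, 9 lower and none higher in basal HB than in HFSC, 25 higher in suprabasal HB than in HFSC and 16 lower in suprabasal HB than in ORS. Over all 20491 genes the same counts, in that order, were 3121, 2738, 2385, 4828 lower and 4136 higher, 4548 and 2781.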
